A study of Mus musculus with 16 samples.

Results

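White adipocytes are the cells that store fat, and 10 genes that mark them in the mouse were followed here through Achilles tendon lacking the tendon transcription factor *Scx* and through cells driven toward tendon in culture. They were *Pparg*, the nuclear receptor that directs fat cell differentiation, *Plin1*, *Plin4* and *Cidec*, which coat or enlarge the lipid droplet, *Fabp4*, *Lpl* and *Cd36*, which take up and carry fatty acids, and *Adipoq*, *Lep* and *Cfd*, which encode the secreted proteins adiponectin, leptin and adipsin. The genes were taken by name, with Ensembl identifiers matched to mouse symbols. All 10 were among the 47729 genes of the bulk RNA table. The table of single-cell counts held 8 of them among 29629 genes, and *Lep* and *Cfd* were not analysed in single cells.

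The bulk samples were Achilles tendon tissue of mice aged 2 weeks, 2 wild type (Wt) and 2 homozygous for the loss of *Scx* (homoKO), drawn from the same litters. Which part of *Scx* was removed is not given in the labels, and whether a sample was 1 animal or a pool is not given in the sources used here. The single cells came from induced pluripotent stem cells (iPSCs) of *ScxGFP* transgenic mice, in which a fluorescent reporter follows *Scx* and which carry no loss of it. They were first turned into mesoderm (T0) and then given TGF-β2 at 10 ng/ml, and the names T3, T6 and T9 stand for days of treatment. Live cells with no gate on the reporter were sorted into 3 plates of 384 wells at each time point. Nothing in the labels says that the plates of a time point were separate cultures, so p-values over plates measure the spread between plates, which may be technical.

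As background, an adipocyte forms when *Pparg* and the C/EBP factors switch on each other and then the genes of lipid uptake, storage and hormone secretion. The stored triglyceride sits in a droplet that perilipins shield from lipases, and fatty acids reach it through lipoprotein lipase at the vessel wall, CD36 at the cell surface and FABP4 in the cytoplasm. The Achilles tendon of the mouse borders a fat pad. Several of the genes are not made by fat alone: capillary endothelium makes *Fabp4* and *Cd36*, and muscle makes *Lpl* and *Cd36*.

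The start regions of the genes were read from RefSeq (GRCm38.p6), which gave 11 windows for 8 of the 10 genes, with none for *Fabp4* and *Lpl*. Each window was the 250 bases before a start site. The letters TTNNGCAA, or TTGCNNAA on the other strand, which are part of the palindrome that C/EBP factors read, occurred in 4 of the 11 windows and in 9.56% of all 32851 windows of that length. A direct repeat of AGGTCA with 1 base between the copies, the element that PPARG reads with its partner RXR, was in 0 of the 11 and in 0.0335% of all windows. The 4 windows shown are those with a match. All 10 genes were lower in the homoKO samples, so a match does not mark the genes that differed. Capitals mark the matched letters, each line runs 5′ to 3′ on the strand of the gene, and a match is only a description of the letters.
Plin1: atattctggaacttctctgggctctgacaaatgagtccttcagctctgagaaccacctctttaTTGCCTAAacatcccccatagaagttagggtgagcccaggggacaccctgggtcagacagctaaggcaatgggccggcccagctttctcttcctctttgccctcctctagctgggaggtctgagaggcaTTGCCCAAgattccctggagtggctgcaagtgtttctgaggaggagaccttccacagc
Pparg: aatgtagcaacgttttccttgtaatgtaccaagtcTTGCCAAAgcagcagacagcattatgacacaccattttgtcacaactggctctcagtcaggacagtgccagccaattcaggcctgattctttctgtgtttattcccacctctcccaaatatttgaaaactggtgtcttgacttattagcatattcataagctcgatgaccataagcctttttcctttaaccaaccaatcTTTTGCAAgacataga
Cidec: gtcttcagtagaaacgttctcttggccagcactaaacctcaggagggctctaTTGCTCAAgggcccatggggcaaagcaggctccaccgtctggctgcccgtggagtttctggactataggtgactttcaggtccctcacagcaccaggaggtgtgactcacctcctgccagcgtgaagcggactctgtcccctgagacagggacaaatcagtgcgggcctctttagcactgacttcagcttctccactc
Lep: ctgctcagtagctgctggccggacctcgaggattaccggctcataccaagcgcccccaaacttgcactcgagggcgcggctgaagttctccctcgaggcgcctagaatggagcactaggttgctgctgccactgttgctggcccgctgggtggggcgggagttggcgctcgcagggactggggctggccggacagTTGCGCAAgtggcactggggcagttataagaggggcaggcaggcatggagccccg
The *Plin1* window is chr7:79732777-79733026 on the minus strand, with matches that begin at bases 64 and 193 of the line. The *Pparg* window is chr6:115421816-115422065 on the plus strand, inside the gene at the most downstream of its 3 start sites listed, with matches from bases 36 and 235. The *Cidec* window is chr6:113434765-113435014 on the minus strand, also inside the gene, and the *Lep* window is chr6:29059971-29060220 on the plus strand. Windows of *Adipoq*, *Cfd*, *Cd36* and *Plin4* held neither motif. The same holds for the *Cidec* window before its outermost start site and for the other *Pparg* windows.

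The bulk libraries held 11188270 to 12398560 counted reads. *Scx* itself was measured at 103 and 81.3 CPM (counts of a gene per 1000000 reads of the sample) in Wt and at 23.1 and 25.1 CPM in homoKO, so the labels and the targeted gene went the same way (log2 fold change -1.88, SE 0.17, adjusted p = 0.000429, edgeR). Tenocyte markers were abundant, with 10 genes that summed to 166124 and 153041 CPM in Wt. Most of that sum was *Col1a1* (84686 and 78446 CPM) and *Col1a2* (71262 and 65382 CPM). In markers of other cells, single libraries stood apart from the rest. Schwann cell markers summed to 6175 CPM in homoKO replicate 1, to 713 and 698 CPM in Wt and to 56.1 CPM in homoKO replicate 2. Skeletal muscle markers summed to 37181 CPM in Wt replicate 1 and to between 67839 and 88496 CPM in the other samples. The 12 plates held 1921125 to 4657093 UMIs (unique molecular identifiers, which count molecules) in 4594 wells with at least 200 genes. All 384 well barcodes were used on every plate, so barcodes do not separate plates. The plates fell on either side of a technical split in the study's mapping summary: all 3 T0 plates, T3 plate 2, T6 plates 1 and 3 and T9 plate 3 had a larger share of reads that matched no gene, and within a time point their cells had more genes.

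Whether adipocyte genes differ in tendon without *Scx* was asked by comparing homoKO with Wt. All 10 genes were lower in both homoKO samples than in both Wt samples, and 6 of the 10 passed the test as lower. Their summed level was 4904 and 2266 CPM in Wt and 1389 and 914 CPM in homoKO. Across all 14602 genes tested, 27.1% were lower without overlap of the groups, 3.84% were called in either direction and 2.07% were called as lower. The median log2 fold change of the 10 genes was -1.76, beside -0.0042 for all genes tested. In bulk tissue, fewer adipocytes and less RNA per adipocyte cannot be told apart. Genes were called where the quasi-likelihood test of edgeR gave a p under 0.05 after Benjamini-Hochberg adjustment over all genes tested, and each adjusted p given for the bulk samples is from that test unless DESeq2 is named.

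**Figure D1:**
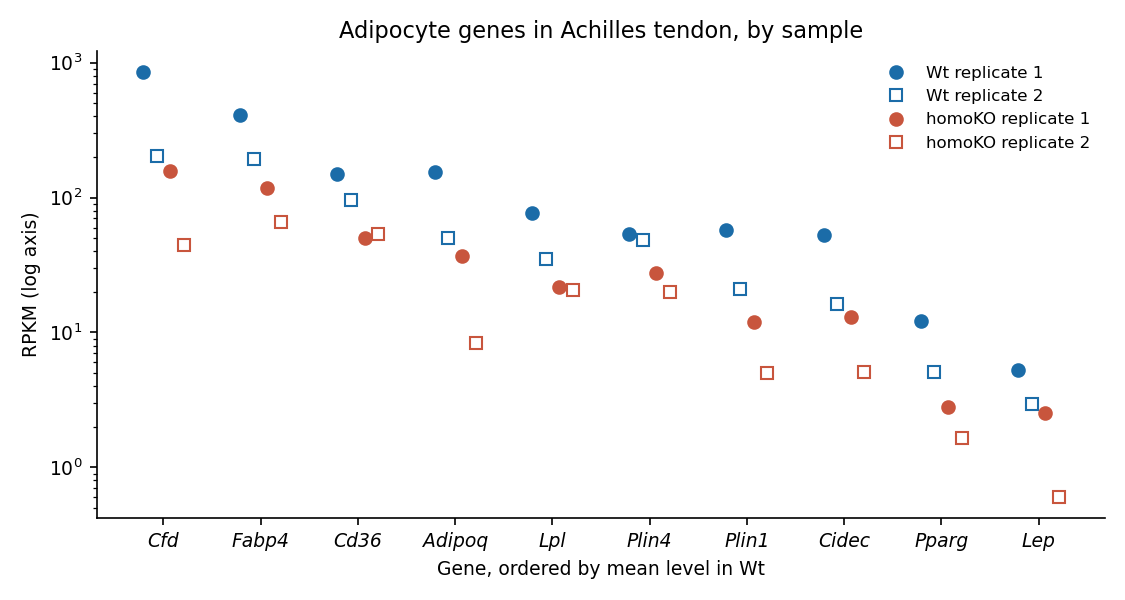
Level of each of the 10 adipocyte genes in each bulk sample, in RPKM (CPM per kilobase of exon, log axis), with Wt in blue, homoKO in red, and genes ordered by their mean in Wt. Each point is 1 sample. For every gene both red points lie below both blue points, and for 9 of the 10 genes the 4 samples run in the same order, from Wt replicate 1 down to homoKO replicate 2.

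The level per kilobase of the regulator was the second lowest of the 10 genes. *Pparg* (chromosome 6, 115360951 to 115490399 in GRCm38, plus strand, overlapping *Gm44079* on the minus strand) was measured at 36.1 and 15.0 CPM in Wt and at 8.31 and 4.84 CPM in homoKO. The samples did not overlap, and the lower Wt sample was 1.81 times the higher homoKO sample, the widest gap of the 10 genes. *Pparg* fell by 1.90 on the log2 scale (SE 0.40, adjusted p = 0.0319). The call was lost without Wt replicate 1 (log2 fold change -1.20, adjusted p = 0.224, edgeR).

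The 3 lipid droplet genes differed in how tightly their samples agreed. *Plin4* (chromosome 17, 56100591 to 56109803, minus strand, overlapping *Hdgfl2* on the plus strand), a perilipin found on small and nascent droplets, was measured at 311 and 282 CPM in Wt and at 159 and 116 CPM in homoKO. It had the most similar Wt samples of the 10 genes. *Plin4* fell by 1.06 (SE 0.18, adjusted p = 0.0103), and it was the 1 gene of the 10 whose call held under all 9 alternatives tried, with adjusted p up to 0.0386. *Plin1* (chromosome 7, 79720218 to 79732903, minus strand), the perilipin that shields the large droplet of fat cells, was measured at 269 and 97.1 CPM in Wt and at 55.7 and 23.4 CPM in homoKO. As ratios, the Wt samples differed 2.77 times and the homoKO samples 2.38 times, both more than the 1.74 times between the nearest samples of the groups. *Plin1* fell by 2.15 (SE 0.45, adjusted p = 0.0313), a call that was lost without Wt replicate 1 (-1.31, adjusted p = 0.0505, edgeR) and in DESeq2 (adjusted p = 0.132). *Cidec* (chromosome 6, 113424634 to 113435760, minus strand), which fuses droplets into a single large one, was measured at 98.1 and 29.9 CPM in Wt and at 24.4 and 9.42 CPM in homoKO. Wt replicate 2 stood 1.23 times above homoKO replicate 1, and the difference did not pass the test (log2 fold change -1.86, SE 0.51, adjusted p = 0.0851).

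The fatty acid genes were the most read of the group, and all 3 passed the test. *Fabp4* (chromosome 3, 10204088 to 10208576, minus strand), the fatty acid carrier of the fat cell cytoplasm, was measured at 1838 and 867 CPM in Wt and at 529 and 297 CPM in homoKO. The groups did not overlap, with the lower Wt sample at 1.64 times the higher homoKO sample. *Fabp4* fell by 1.66 (SE 0.35, adjusted p = 0.0323). *Lpl* (chromosome 8, 68880491 to 68907448, plus strand), which frees fatty acids from circulating lipoproteins, was measured at 799 and 365 CPM in Wt and at 228 and 217 CPM in homoKO. The Wt samples differed 2.19 times and the homoKO samples 1.05 times. *Lpl* fell by 1.32 (SE 0.29, adjusted p = 0.0384). *Cd36* (chromosome 5, 17781690 to 17888801, minus strand), the surface receptor for fatty acids, was measured at 534 and 343 CPM in Wt and at 180 and 192 CPM in homoKO. It was the 1 gene of the 10 that was higher in homoKO replicate 2 than in homoKO replicate 1. *Cd36* fell by 1.18 (SE 0.21, adjusted p = 0.0143). Leaving out a sample ended the call of *Lpl* 3 times of 4, with adjusted p from 0.0573 to 0.101 and the smallest difference, -0.72, without Wt replicate 1. It ended that of *Cd36* without homoKO replicate 1 (adjusted p = 0.0621) and that of *Fabp4* without homoKO replicate 2 (adjusted p = 0.0746).

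The genes of the 3 secreted proteins had the widest spread between the homoKO samples, and edgeR called 0 of the 3. All 3 had an unadjusted p under 0.05, and DESeq2 called 0 of the 3. Among all 10 genes DESeq2 called 4, namely *Plin4*, *Pparg*, *Lpl* and *Cd36*. *Adipoq* (chromosome 16, 23146536 to 23158028, plus strand) was measured at 215 and 69.5 CPM in Wt and at 50.7 and 11.6 CPM in homoKO. Its homoKO samples differed 4.35 times, which was more than the 1.37 times between the nearest samples of the groups (log2 fold change -2.13, SE 0.60, adjusted p = 0.0941). *Cfd* (chromosome 10, 79890853 to 79892655, plus strand) was measured at 787 and 188 CPM in Wt and at 145 and 40.9 CPM in homoKO. Wt replicate 1 was 4.19 times Wt replicate 2, the largest ratio within Wt among the 10 genes (log2 fold change -2.33, SE 0.64, adjusted p = 0.0866). *Lep* (chromosome 6, 29060220 to 29073877, plus strand), the hormone that reports fat stores to the brain, was read 197 and 122 times in Wt and 105 and 24 times in homoKO, or at 17.6, 9.95, 8.47 and 2.04 CPM. The middle samples differed by only 1.18 times, and *Lep* had the weakest evidence of the 10 (log2 fold change -1.34, SE 0.54, adjusted p = 0.238). Leaving out a sample moved the log2 fold change of these genes and of *Cidec* widely, from -1.18 to -3.50 for *Adipoq*, -1.03 to -3.46 for *Cfd*, -0.67 to -2.66 for *Lep* and -0.84 to -2.66 for *Cidec*. The smallest values were without Wt replicate 1, or without homoKO replicate 2 for *Lep*, and the largest were without homoKO replicate 1.

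Levels of different genes were compared per kilobase of exon. In Wt the order of the mean was *Cfd* (528 ± 459 RPKM, SD, n = 2), *Fabp4* (301 ± 153), *Cd36* (122 ± 37.7), *Adipoq* (103 ± 74.2), *Lpl* (55.6 ± 29.3), *Plin4* (51.3 ± 3.56), *Plin1* (39.3 ± 26.1), *Cidec* (34.5 ± 26.0), *Pparg* (8.66 ± 5.05) and *Lep* (4.11 ± 1.61). Most neighbors in this order overlapped in the range of their 2 samples. The exceptions were *Fabp4* (193 and 409 RPKM) above *Cd36* (95.6 and 149), and *Cidec* (16.1 and 52.9) above *Pparg* (5.08 and 12.2). Read within each Wt sample, *Cfd* was also above *Fabp4*, *Adipoq* above *Lpl*, *Plin1* above *Cidec* and *Pparg* above *Lep* in both. The order of *Cd36* and *Adipoq*, of *Lpl* and *Plin4* and of *Plin4* and *Plin1* differed between the Wt samples, so these cannot be ranked. In homoKO the same genes stood at the ends, with *Cfd* at 101 ± 80.1 RPKM and *Lep* at 1.57 ± 1.36 RPKM. The exon lengths are those of all annotated transcripts joined, so a gene with a long rare exon is set too low.

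The spread within a genotype was itself shared by the genes. For all 10, Wt replicate 1 was above Wt replicate 2, with a median ratio of 2.30, and for 9 of 10 homoKO replicate 1 was above homoKO replicate 2, with a median ratio of 2.08. Over all genes tested the medians of these ratios were 1.08 and 1.04. The full order, Wt replicate 1, Wt replicate 2, homoKO replicate 1, homoKO replicate 2, was held by 9 of the 10 genes and by 10.9% of all genes tested. Both ratios were at least 1.5 for 7 of the 10 genes and for 4.36% of all genes tested. The ratio of the lower Wt sample to the higher homoKO sample ran from 1.18 (*Lep*) to 1.81 (*Pparg*), so for most of the genes the samples within a genotype differed more than the nearest samples of the 2 genotypes. The number of genes called was 3 without Wt replicate 1 (*Plin4*, *Fabp4* and *Cd36*), 9 without Wt replicate 2, 8 without homoKO replicate 1 and 4 without homoKO replicate 2, all lower, where the lone sample left in a group is assumed to vary as the other group does. With total counts in place of TMM scaling, 2 of the 10 stayed called (*Plin4* and *Cd36*), and the adjusted p of *Plin1*, *Pparg*, *Fabp4* and *Lpl* lay between 0.0542 and 0.0616.

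A further 7 lists of fat cell genes, without the 10, were read from the same fit. In the lipid droplet and lipolysis list, 4 of 14 genes tested fell and none rose. They were the lipases *Lipe* (-1.91, adjusted p = 0.0414) and *Pnpla2* (-0.94, adjusted p = 0.0375), the glycerol channel *Aqp7* (-1.76, adjusted p = 0.00178) and the perilipin of oxidative tissue *Plin5* (-1.23, adjusted p = 0.0395). *Aqp7* had close replicates, at 41.8 and 31.8 CPM in Wt, each well above either homoKO sample. In fatty acid and triglyceride synthesis, 4 of 16 fell and none rose. *Pck1*, which makes the glycerol backbone in fat, showed the largest change of that list (-3.04, SE 0.57, adjusted p = 0.0200), from 153 and 72.7 CPM in Wt to 22.3 and 4.25 CPM in homoKO. The desaturase *Scd1* (-2.00, adjusted p = 0.0203), the last enzyme of triglyceride assembly *Dgat2* (-1.64, adjusted p = 0.00578) and the first, *Gpam* (-0.99, adjusted p = 0.0480), were the others. *Pck1* lay at -4.63 without homoKO replicate 1 and was not called by DESeq2 (adjusted p = 0.0836), and the call of *Gpam* was lost without Wt replicate 2 or homoKO replicate 1 (adjusted p = 0.125 and 0.115). In uptake and transport, 4 of 11 fell and none rose, namely the lipase inhibitor *Angptl4* (-1.53), the fatty acid transporter *Slc27a1* (-1.16), the muscle carrier *Fabp3* (-1.14) and *Acsl1* (-1.01), which activates fatty acids. Their adjusted p ran from 0.0119 to 0.0494. With total counts in place of TMM the fold changes stayed negative for all 12, and the calls of *Lipe*, *Plin5*, *Pnpla2*, *Angptl4*, *Slc27a1* and *Acsl1* were lost. Over all 9 alternatives *Aqp7*, *Scd1* and *Dgat2* stayed called, and the other 9 lost their call under 1 to 4 of them (adjusted p up to 0.231).

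Regulators, receptors and precursor genes of fat cells were read in the same way. Of 13 adipogenic transcription factors, 12 had a negative log2 fold change, as did 50.4% of all genes tested, and 10 of the 13 were lower with no overlap, beside the 27.1% of all genes given above. The test of edgeR called 0 of them (9 at an unadjusted p under 0.05, and 1 by DESeq2). The median of that list was -0.43, and its summed level ran in the order of the adipocyte genes, at 1.14 and 0.861 times the Wt mean in Wt and 0.703 and 0.628 times in homoKO. The 10 adipokines and receptors were split, with 5 negative log2 fold changes and a median of -0.11. With no overlap, 5 of them were lower and 3 were higher in homoKO, and 2 were called, both lower. *Lepr*, the leptin receptor, fell from 36.6 and 31.7 CPM to 4.44 and 4.92 CPM (-2.82, SE 0.23, adjusted p = 0.000262), with little spread in either group. *Adrb3*, the adrenergic receptor of fat, was also called lower, at 4.56 and 1.63 CPM in Wt and 0.0807 and 0 CPM in homoKO, a call that was lost without Wt replicate 1 or either homoKO sample (adjusted p from 0.0584 to 0.403). Among 10 genes of adipocyte progenitors, the surface peptidase *Dpp4* fell (-1.67, adjusted p = 0.00580) and *Dlk1*, an inhibitor of fat cell differentiation, rose (0.89, adjusted p = 0.0423). The call of *Dlk1* was lost under 3 of 9 alternatives, among them total counts (0.83), with log2 fold changes from 0.70 to 1.11 over all 9. Of 5 brown fat genes tested edgeR and DESeq2 each called 0 (1 at an unadjusted p under 0.05), and *Ucp1*, the uncoupling protein that defines brown fat, had no read in any sample.

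**Figure D2:**
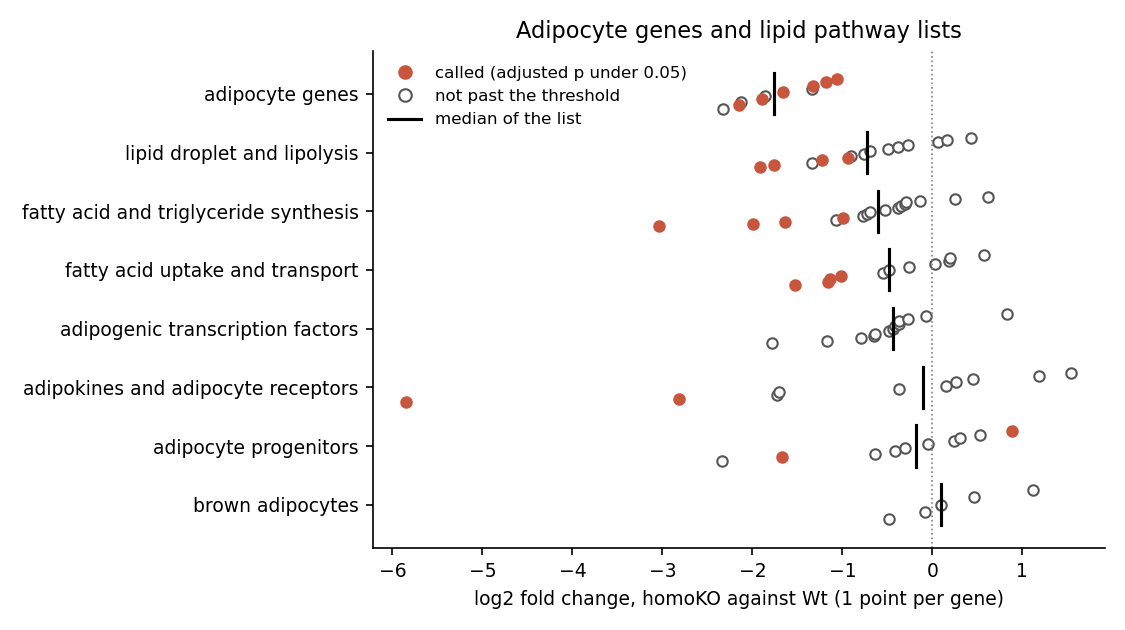
Log2 fold change of homoKO against Wt for the 10 adipocyte genes and for each tested gene of 7 related lists, 1 point per gene, filled where the gene was called and with a black line at the median of the list. All 10 adipocyte genes lie below 0 with a median of -1.76, and the medians of the other lists lie between -0.73 and 0.09.

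Markers of other cell types were set beside these values, since a dissected tendon holds muscle, vessel, nerve and blood. Summed skeletal muscle markers were lowest in Wt replicate 1, the sample with the highest level of all 10 adipocyte genes, at 0.708 times the Wt mean. They stood at 1.29 times in Wt replicate 2 and at 1.61 and 1.69 times in homoKO. *Myh2* was the 1 gene of that list with a negative log2 fold change, at 3585 and 2561 CPM in Wt and 2287 and 2344 CPM in homoKO. All 10 of that list were measured above 0, and edgeR called 0 of them (4 at an unadjusted p under 0.05, and 2 by DESeq2). The endothelial list, 9 of 9 genes measured above 0, was at 1.02 and 0.982 times the Wt mean in Wt and at 0.749 and 0.609 in homoKO, with *Tek* (-0.73, adjusted p = 0.0374) and *Kdr* (-0.64, adjusted p = 0.0444) called lower. Both calls were lost without any 1 of the 4 samples (adjusted p from 0.0795 to 0.191). Pericyte and smooth muscle markers ran in the same order of samples as the adipocyte genes, at 1.15 and 0.851 times in Wt and 0.650 and 0.533 times in homoKO. Of these 6 genes *Acta2* was called lower, a call lost with total counts and without Wt replicate 1 or homoKO replicate 2 (adjusted p from 0.0716 to 0.129). The summed adipocyte genes, at 0.387 and 0.255 times the Wt mean in homoKO, were further down than these. Macrophage markers overlapped, at 292 to 476 CPM in Wt and 368 to 427 CPM in homoKO. Summed markers of tenocytes (0.456 and 0.524 times the Wt mean in homoKO) and of chondrocytes (0.0513 and 0.0428 times) were lower too, with 6 of 10 and 4 of 5 genes called lower. The tenocyte sum was mostly *Col1a1* and *Col1a2*. Of its 10 genes, 9 were lower with no overlap, and *Tnc* was higher in homoKO (391 and 349 CPM against 289 and 319 CPM in Wt). *Snorc* of the chondrocyte list was at 0 in every sample. Keratinocyte markers summed to at most 14.0 CPM, with *Krt5* and *Krt14* at 0 in Wt and *Krt1* at 0 throughout. Schwann cell markers, high in homoKO replicate 1, ran in another order than the adipocyte genes. The part of muscle, vessel, pericyte, cartilage or nerve content in the adipocyte gene differences was not tested.

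**Figure D3:**
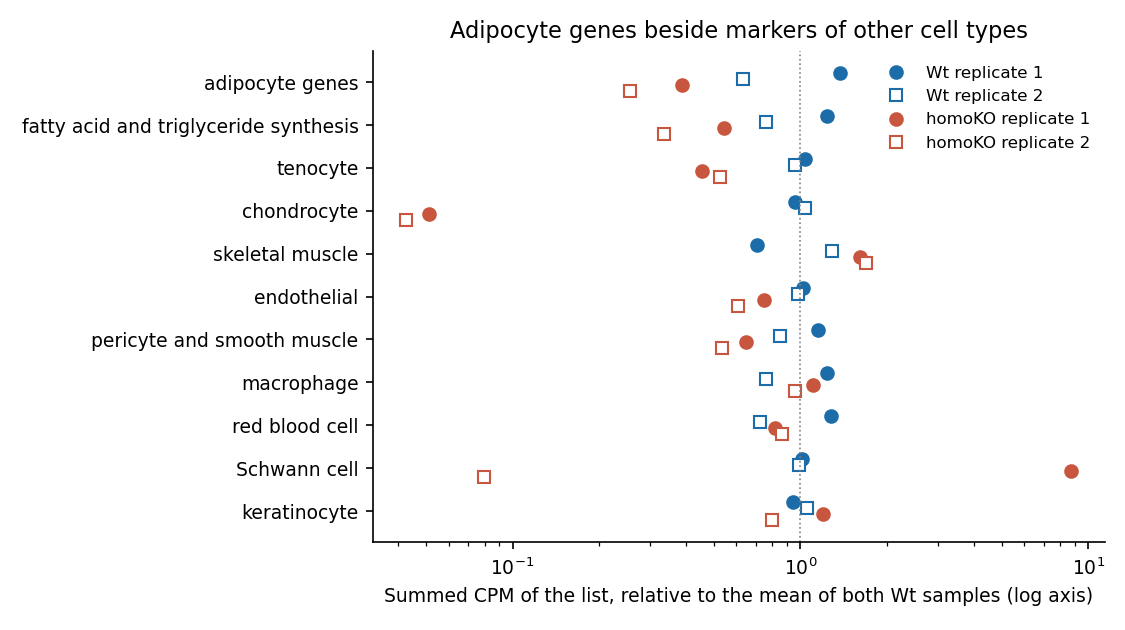
Summed CPM of the adipocyte genes, of 1 lipid synthesis list and of marker lists of 9 other cell types in each bulk sample, divided by the mean of both Wt samples (log axis), with 1 point per sample. The adipocyte genes run from 1.37 in Wt replicate 1 to 0.255 in homoKO replicate 2, and muscle markers run from 0.708 to 1.69 in the opposite direction. Schwann cell markers stand at 8.75 in homoKO replicate 1 and at 0.0795 in homoKO replicate 2.

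In the induced cells the same genes were mostly not seen. Of the 8 genes with a row in the UMI table, 6 were nearly empty over all 4594 cells. *Plin1* gave 13 UMIs in 13 cells, *Pparg* 8 UMIs in 7 cells, *Cd36* 3 UMIs, *Adipoq* and *Cidec* 2 UMIs each and *Plin4* 1 UMI. These were spread over time points, with *Plin1* at 4, 3, 4 and 2 UMIs and *Pparg* at 3, 1, 1 and 3 UMIs from T0 through T9. At that depth a change in these 6 genes was not detectable, and only *Fabp4* (488 UMIs) and *Lpl* (684 UMIs) passed the filter on low counts. No cell held UMIs of 3 or more of the 8 genes, 9 cells held 2 and 588 held 1. The pairs were *Fabp4* with *Lpl* in 5 cells, *Plin1* with *Lpl* in 2, and *Plin4* with *Lpl* and *Pparg* with *Fabp4* in 1 cell each. A count of 0 of 4594 cells limits cells with UMIs of those genes, not cells that express them.

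*Fabp4* appeared with time in TGF-β2. Its UMIs numbered 0, 0 and 0 on the T0 plates, 0, 7 and 0 on the T3 plates, 22, 28 and 24 on the T6 plates and 197, 137 and 73 on the T9 plates. The 7 UMIs at T3 were all in a single cell, and every T9 plate was above every T6 plate. The mean level in T3 was 0.860 ± 1.49 CPM (SD over 3 plates), that in T6 was 6.75 ± 1.87 CPM and that in T9 was 40.6 ± 14.9 CPM. Since no UMI was found among 12691879 at T0, where 3 UMIs over the group would give 0.236 CPM, the level was at least 27.8-fold higher at T6 and at least 175.5-fold higher at T9 than at T0, from the UMIs pooled over plates.

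In the fit of all 12 plates, *Fabp4* rose from T6 to T9 (log2 fold change 2.89, SE 0.54, adjusted p = 0.0224, edgeR) and was called higher at T9 than at T0 (adjusted p = 7.1e-06). From T3 to T6 the log2 fold change was 2.90 (SE 0.84, adjusted p = 0.0793), and from T0 to T3 the adjusted p was 0.0764, both short of the threshold. Of all 13372 genes tested, 1.62% were called between T9 and T6, 4.24% between T6 and T3, 33.2% between T3 and T0 and 45.2% between T9 and T0, so a call at T9 against T0 is a frequent event. The share of those calls that were higher at the later time depended on the scaling, at 57.6% with TMM and 30.0% with total counts between T6 and T9, 52.1% and 28.2% between T0 and T9, and 51.3% and 39.1% between T0 and T3. Total counts moved the median log2 fold change of all genes from -0.016 to -0.49 for T9 against T0 and from -0.014 to -0.25 for T9 against T6, while *Fabp4* stayed called against T0. On the plates with the larger share of unmatched reads, *Fabp4* went from 5.67 CPM at T6 to 24.2 CPM at T9, and among the others from 8.91 to 48.8 CPM. The call between T9 and T6 was lost without T6 plate 1 or 3 or T9 plate 1 or 2 (adjusted p from 0.0822 to 0.148), with the 6 plates alone (adjusted p = 0.0505) and with total counts in place of TMM scaling (log2 fold change 2.59, adjusted p = 0.0786). It held in DESeq2 (adjusted p = 6.38e-05) and with the split as a covariate (adjusted p = 0.00215).

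The rise was in the number of cells with *Fabp4* as well as in UMIs. *Fabp4* was found in 0 of 1147 cells at T0, which allows a share of up to 0.262% by the limit of 3 counts of the total (exact 95% upper bound 0.321%), in 1 of 1151 at T3, in 35 of 1149 at T6 (3.05%, exact 95% interval 2.13 to 4.21%) and in 121 of 1147 at T9 (10.5%, 8.83 to 12.5%). Intervals cover counting error only, and over plates the share at T9 was 10.6% ± 3.50 (SD, n = 3). The T0 cells, which serve as cells without the gene, were the deeper ones, with a median of 10179 UMIs per cell against 7906 at T9. With each cell thinned to 3000 UMIs the share was 1.46% ± 0.770 at T6 and 6.56% ± 1.71 at T9, with 76, 113, 68 and 36 cells of T0, T3, T6 and T9 left out. Of the T9 cells with *Fabp4*, 55 held 1 UMI, 66 held 2 or more and 32 held 5 or more, up to 19 in a single cell. Cells with UMIs of at least 4 of 8 pluripotency genes, taken as a class that should lack fat cell genes, held *Fabp4* in 0 of 13 cells at T9, too few to set a useful limit (3 counts would be 23.1%).

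*Lpl* took another course. Its UMIs numbered 72, 81 and 87 on the T0 plates, 24, 34 and 20 on the T3 plates, 91, 29 and 86 on the T6 plates and 27, 25 and 108 on the T9 plates. Within T6 and T9, the plates with the larger share of unmatched reads were the high ones, at 21.9 CPM against 9.23 at T6 and at 35.8 CPM against 7.68 at T9. At T3 the corresponding values were 12.5 and 9.73 CPM, and T0 had no plate on the other side. In the 4 contrasts between time points that were fitted, *Lpl* did not pass the threshold in edgeR or DESeq2, nor at an unadjusted p under 0.05 in edgeR. The log2 fold change was -0.65 (SE 0.45) for T3 against T0, 0.74 (SE 0.45) for T6 against T3, 0.09 (SE 0.43) for T9 against T6 and, over the whole course, 0.19 (SE 0.42). The last 2 changed sign with total counts in place of TMM, to -0.07 and -0.18, and the order of *Lpl* over time cannot be told apart from the split of the plates.

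*Lpl* UMIs were present in 155 of the 1147 T0 cells (13.5%), 44 of the 1151 T3 cells (3.82%), 130 of the 1149 T6 cells (11.3%) and 92 of the 1147 T9 cells (8.02%). In the pluripotency class *Lpl* was found in 6 of 73 cells at T0 (8.22%, median depth 18077 UMIs), beside 13.9% of the other 1074 cells (median depth 9934 UMIs). The shares at T3 and T9 were not above that level. Since it rests on 6 cells with *Lpl*, in a class of greater depth, the shares at T0 and T6 are not read as above it either. None of the shares is read as a difference in expression. After thinning, the shares were 5.04% ± 0.754 in T0, 2.74% ± 1.49 in T3, 5.14% ± 2.14 in T6 and 3.28% ± 3.20 in T9 (SD, n = 3), and those of T3, T6 and T9 overlapped within their SDs.

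**Figure D4:**
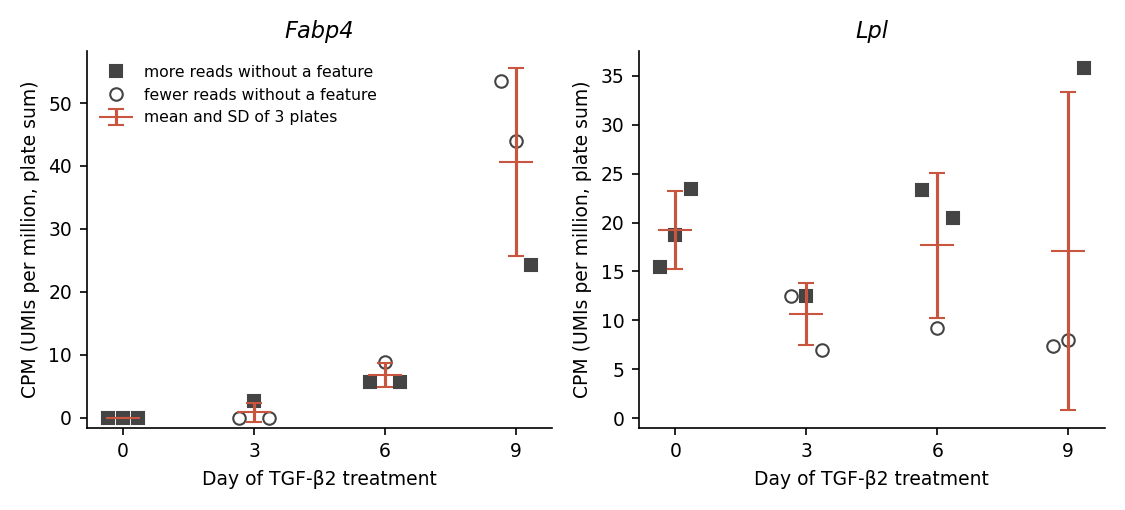
CPM of *Fabp4* (left) and *Lpl* (right) in each of the 12 plates by day of TGF-β2 treatment, with the mean and SD of the 3 plates of a time point in red, filled squares for plates with the larger share of unmatched reads and open circles for the others. *Fabp4* goes from 0 on every T0 plate to between 24.2 and 53.5 CPM at T9, whereas *Lpl* at T6 and T9 is high on the filled plates and low on the open ones.

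The T9 cells that held *Fabp4* were compared with the other cells of their plate, by summing UMIs per plate and fitting the plate as a block. This comparison was added after the data were seen. Of 9808 genes tested, with *Fabp4* left out, 66 (0.673%) were called, 48 higher and 18 lower. The cells with *Fabp4* were higher in tendon genes: of 9 tenocyte markers tested, 6 rose, none fell, and *Fmod*, *Kera* and *Mkx* did not pass the test. *Tnmd*, the membrane protein of mature tenocytes, was at 312, 411 and 237 CPM in the cells with *Fabp4* on the 3 plates and at 117, 62.6 and 56.3 CPM in the others. It was higher on 3 of 3 plates and had the lowest p of all genes (log2 fold change 2.06, SE 0.19, adjusted p = 4.21e-08). The matrix gene *Thbs4* (1.62, SE 0.20, adjusted p = 2.17e-05), *Scx* (1.17, SE 0.17, adjusted p = 9.7e-05) and *Tnc* (0.76, SE 0.17, adjusted p = 0.0156) rose, and *Col1a1* and *Col1a2* rose by 0.37 and 0.35. Markers of other cells moved as well. *Sox2* and *Utf1*, of the pluripotency list, were lower on plates 1 and 2 (8.91 and 2.98 CPM against 65.0 and 80.3 CPM for *Sox2*) and at 0 in both kinds of cell on plate 3, and the muscle gene *Mylpf* was at 3.56, 2.98 and 7.63 CPM against 36.5, 51.8 and 1.45 CPM. Each was called lower by edgeR (log2 fold changes -3.38, -2.60 and -2.77) and not by DESeq2, and their part in the difference in tendon genes was not tested. Among fat cell genes, the carrier *Fabp5* rose, from 33.4 ± 2.72 to 96.4 ± 21.3 CPM (log2 fold change 1.55, SE 0.24, adjusted p = 0.000346).

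Of the other adipocyte genes, only *Lpl* could be tested in these cells. It passed the filter on low counts through its UMIs in the cells without *Fabp4*. A call of *Lpl* as lower is therefore not independent of that filter. It was at 0, 0 and 3.81 CPM in the cells with *Fabp4* and at 8.65, 9.00 and 38.9 CPM in the others. These values rest on 1 UMI against 159, a ratio of 0.0470 with an exact 95% counting interval of 0.00118 to 0.265. That ratio, like the shares of cells below, pools the plates and leaves out their differences. T9 plate 3 held 108 of the 160 *Lpl* UMIs of T9 but 29 of the 121 cells with *Fabp4*. *Lpl* was called lower by edgeR (log2 fold change -4.07, SE 0.98, adjusted p = 0.0396) and not by DESeq2, and the call was lost without any 1 of the 3 plates (adjusted p from 0.154 to 0.341) and with at least 2 *Fabp4* UMIs asked for (adjusted p = 0.293). In cells, *Lpl* was found in 1 of 121 with *Fabp4* (0.826%) and in 91 of the other 1026 (8.87%) at T9, whereas at T6 the shares were 11.4% of 35 and 11.3% of 1114. *Adipoq*, *Plin4* and *Cidec* had no UMI in any T9 cell, *Plin1* had 2, *Cd36* had 1 and *Pparg* had 3, too few to place them in or out of the cells with *Fabp4*. The 9 lipid droplet, 9 lipid synthesis and 6 adipogenic transcription factor genes tested gave 0 calls each in edgeR and in DESeq2, with 1, 1 and 0 at an unadjusted p under 0.05.

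Not every cell with *Fabp4* held *Tnmd*. *Tnmd* was found in 31 of the 121 (25.6%) and in 12.1% of the other T9 cells. On plates 1, 2 and 3 the shares were 29.1% against 17.7%, 32.4% against 9.59% and 10.3% against 9.30%, so on plate 3 the higher level lay in few cells. Cells with *Fabp4* were deeper, with medians of 9667, 8027 and 7906 UMIs against 8985, 7357 and 7210 in the others. With each cell thinned to 3000 UMIs, 15.1% of 73 cells with *Fabp4* and 8.48% of the rest held *Tnmd*. At T6, where 35 cells held *Fabp4*, *Tnmd* was found in 14.3% of them and in 12.7% of the others. The number of called genes was 46 without T9 plate 1, 1 (*Tnmd*) without plate 2, 156 without plate 3, and 0 in edgeR with no plate block (352 at an unadjusted p under 0.05), where *Tnmd* had an adjusted p of 0.440. DESeq2 called 45 with the block.

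**Figure D5:**
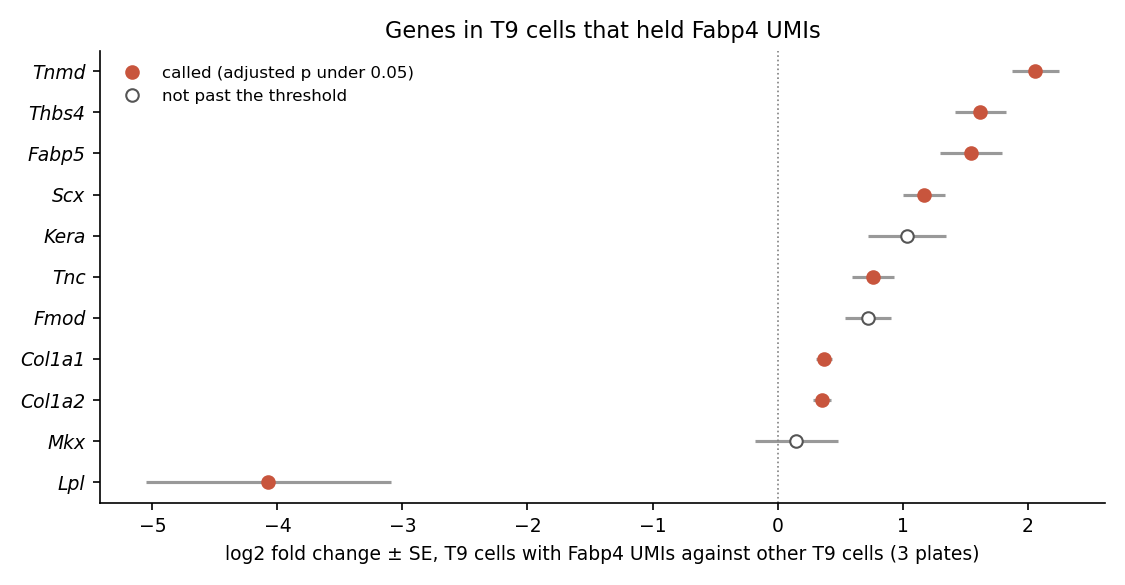
Log2 fold change with its SE between T9 cells with UMIs of *Fabp4* and the other T9 cells, from UMI sums per plate over 3 plates with the plate as a block, for the tenocyte markers, *Fabp5* and *Lpl*, filled where called. *Tnmd* lies highest at 2.06, and *Lpl* lies at -4.07 with the widest error. The point of *Lpl* rests on 1 UMI in the cells with *Fabp4*, and its call is not independent of the filter on low counts.

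The related fat cell lists moved in both directions between T0 and T9, where 45.2% of all genes tested were called, 3155 higher and 2895 lower at T9. In uptake and transport, 7 of 10 genes tested rose and none fell, among them the caveolar genes *Cav1* (75.2 ± 1.72 CPM at T9 against 0.644 ± 0.194 at T0) and *Cavin1* (149 ± 33.6 against 20.7 ± 3.32), *Fabp5* (40.9 ± 6.14 against 5.63 ± 0.719) and the lipoprotein receptor *Vldlr* (44.4 ± 17.3 against 14.6 ± 3.00). In the lipid droplet list, 6 of 10 rose and 1 fell. The lipase inhibitor *G0s2* rose the most there (20.6 ± 2.67 against 1.85 ± 0.843 CPM), and *Plin2*, the perilipin of most cell types, fell (38.0 ± 0.773 against 114 ± 9.90 CPM). In lipid synthesis 3 of 11 rose and 3 fell, with *Me1* (77.4 ± 15.4 against 10.3 ± 2.66 CPM) and *Elovl6* (19.7 ± 1.30 against 114 ± 3.19 CPM) at either end. Of 8 adipogenic transcription factors, 4 rose, including *Cebpd* (35.2 ± 8.54 against 5.97 ± 3.01 CPM) and *Cebpb* (46.1 ± 7.58 against 16.8 ± 7.41 CPM), and 2 fell, *Ebf1* and *Zfp423*, the latter named after its values were seen. Of 9 progenitor genes tested 6 rose and 1 fell. Those that rose included *Dlk1* (9285 ± 1692 against 1179 ± 131 CPM) and *Cd34* (15.0 ± 2.24 against 0.179 ± 0.311 CPM). Of 4 adipokines and receptors tested 3 rose, led by the retinol carrier *Rbp4* (4.78 on the log2 scale), and of 2 brown fat genes *Dio2* rose (5.91) and *Prdm16* fell (-1.71). Some of these counts rest on unstable calls: *Adipor1* was past the threshold in 9 of 14 alternatives, *Adrb3* and *Stat5a* in 10 of 14, and *Mgll* and *Icam1* in 9 of 13, with adjusted p up to 0.613. With total counts none of the genes named here changed sign, leaving aside *Zfp423*, which was not refitted. Endothelium also makes *Fabp4*, and of 9 endothelial markers only *Kdr* and *Egfl7* could be tested. Both rose, *Kdr* to 43.5 ± 29.2 from 1.87 ± 1.34 CPM. At T9 *Kdr* was at 8.91, 26.8 and 53.4 CPM in the cells with *Fabp4* and at 29.8, 26.6 and 79.5 CPM in the others, and neither gene was among those called in the T9 cells with *Fabp4*. An endothelial source of *Fabp4* was not tested.

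Over the 12 plates, the genes whose log2 CPM ran most like *Fabp4* were *Medag* (Pearson r = 0.98), *Kdelc2* (0.96) and *Fxyd6* (0.96). *Medag*, named for adipogenesis, was at 0 CPM on the 3 T0 plates, at 3.33 to 4.52 CPM at T6 and at 6.74 to 10.3 CPM at T9. Those most like *Lpl* were *Gne* (0.95), *Jmy* (0.95) and *Evc2* (0.94), and all 3 were higher on the T6 and T9 plates with the larger share of unmatched reads. The plates share time points and the technical split, so these values only describe likeness.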

How the data were processed

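Bulk RNA of Achilles tendon and CEL-Seq2 libraries of sorted single cells were analysed from the gene tables of the series. The authors deposited whole-number read counts per gene (bulk) and UMI counts per gene and well (single cells), without normalization, after alignment to GRCm38 with HISAT2 (2.0.4 or 2.2.1 in the submitters' processing notes, with featureCounts 1.5.0 and UMI-tools 1.0.1). The annotation release and strand setting are not given in the sources used here, so reads of *Plin4* and *Hdgfl2*, or *Pparg* and *Gm44079*, which overlap on opposite strands, may not be separated. Gene positions and exon lengths are from GENCODE M21. Rows of 3 non-Ensembl identifiers (0.0642% of UMIs) were left out, and wells with at least 200 genes were kept. No doublet caller was run, since wells received single sorted cells.

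Counts, summed per plate for single cells, were tested with edgeR 4.0.16 in R 4.3.3 (filterByExpr, TMM, quasi-likelihood test), with all 12 plates in a single fit and Benjamini-Hochberg adjustment over all genes. DESeq2 1.42.0 was the other tool. Other alternatives were other scalings, no filter, a replicate block, a covariate for the split between plates, a fit of the 6 plates of 2 time points alone, a minimum of 500 genes per well and leaving out each sample. The scripts were tested on simulated data. Depth was 11188270 to 12398560 reads per bulk sample and 1921125 to 4657093 UMIs per plate, and binomial intervals are exact. Beyond the 10 genes, up to 4 called genes of each list with the largest fold change were named in each of homoKO against Wt and T9 against T0, and the 3 genes most like *Fabp4* and *Lpl* over plates. The 10 genes, the lists and the tests were chosen with earlier results of these data known.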

Additional observations from a re-analysis of the deposited data

How the results depend on the processing

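The 10 adipocyte genes were lower in homoKO under all 9 alternatives tried in bulk, but the number called, 6 as reported, moved. It was 2 with total counts in place of TMM, 4 with DESeq2, 6 with DESeq2 size factors, 10 with no filter on low counts (1415 genes called in all, against 560) and 3 to 9 when a sample was left out. The cause was not tested. With the replicate number as a block, 10 of the 10 and 1108 genes were called in bulk, 113 genes between T9 and T6, and 1 of *Fabp4* and *Lpl* between T3 and T0. The numbers are not known to pair samples, since deviations from the group means correlated at 0.08 between Wt replicate 1 and homoKO replicate 1, at -0.560 to 0.503 between plates of the same number, and not every plate correlated best with its own number.

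For T6 against T3, 567 genes were called as reported, and 899 with DESeq2, 299 with total counts, 1010 with no filter, 264 with only the 6 plates, 1483 with the plate split as a covariate and 291 to 890 without 1 plate. For T9 against T6 the corresponding counts were 217, 579, 90, 684, 45, 813 and 35 to 852. *Fabp4*, the 1 member called there, gave 0 with total counts, 0 with only the 6 plates and 0 to 1 without 1 plate. Between T6 and T3, where 0 was reported, 1 was called with DESeq2, no filter and the split as a covariate, and 0 to 1 without 1 plate. Between T3 and T0, 1 was called with DESeq2 and no filter. *Lpl* changed sign with total counts, to -0.069 between T6 and T9 and to -0.18 between T0 and T9, and ranged from -0.75 to 0.39 and from -0.67 to 0.48 without 1 plate, the lowest being without T9 plate 3. Without T6 plate 2 the T9 against T6 value was -0.11. For the T9 cells with *Fabp4*, 66 genes became 100 with at least 2 UMIs, 0 without the plate block and 1 to 156 without 1 plate. At this depth only *Fabp4* and *Lpl* passed the filter in single cells, and low depth and lack of expression cannot be told apart for the other 6 genes.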

Other observations

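The T9 cells with *Fabp4* differed from the other T9 cells in more than tendon and fat genes. The genes below were chosen after their values were seen, and each adjusted p is from edgeR with the plate as a block over 3 plates. The matrix genes *Col5a2* (201 against 89.3 CPM, log2 fold change 1.27, adjusted p = 0.000139) and *Postn* (1969 against 1429 CPM, 0.54, adjusted p = 0.00743) were higher, and *Eln*, which encodes elastin (701 against 1168 CPM, -0.82, adjusted p = 5.42e-05), and *Col14a1* (82.0 against 192 CPM, -1.32, adjusted p = 0.000750) were lower. *Igfbp5* was higher too (679 against 333 CPM, 1.06, adjusted p = 6.14e-05).

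Other genes called higher in these cells were the glucose transporter *Slc2a1* (280 against 150 CPM, log2 fold change 0.93, adjusted p = 0.000444), the prolyl hydroxylase *Egln3* (132 against 59.3 CPM, 1.18, adjusted p = 0.00150), the carbonic anhydrase *Car9* (60.4 against 19.5 CPM, 1.74, adjusted p = 0.00241) and the glycolytic enzyme *Pgk1* (1403 against 1063 CPM, 0.42, adjusted p = 0.0260). *Hilpda* (89.2 against 48.7 CPM, 0.91, adjusted p = 0.0706) and *Angptl4* (46.0 against 39.3 CPM, 0.24, adjusted p = 0.944) did not pass the test. *Gdf10*, of the progenitor list, was lower (38.1 against 115 CPM, -1.52, adjusted p = 0.000737).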
